A study of Bos taurus with 12 samples.

Results

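Pregnancy-associated glycoproteins (PAGs) were followed here in sperm DNA of bulls with low or high daughter fertility. The members are all CpG sites and tiles on chromosomes 1 to 29 whose closest annotated feature carries a gene name containing pregnancy-associated glycoprotein, at any distance. This rule took 13 of the 17730 sites in the authors' deposited table, together with 0 of the 7290 tiles (windows of 500 bp) in its companion table. The 13 sites named 9 genes, all on chromosome 29, out of 3167 genes named by a site anywhere.

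The study read methylation in genomic DNA of 12 sperm samples by EM-seq (enzymatic methyl sequencing), which converts unmethylated cytosines with enzymes in place of bisulfite. By the labels, 6 samples came from bulls with low daughter fertility and 6 from bulls with high daughter fertility, and all were sperm from males. Breed, age, relatedness of the bulls and the measure of daughter fertility are not given in the sources used here. The files analysed hold the result of the group comparison at each locus, so no level in any single sample, no spread between samples and no sequencing depth can be set beside the values below. A difference is in percentage points of methylation and keeps the sign listed, because the headers and labels do not say which group was subtracted. A site is termed called where the authors' q-value is below 0.05 and the absolute difference is at least 10 points.

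PAGs are secreted proteins of the ruminant placenta, made by the trophoblast, the outer cell layer of the conceptus. They belong to the pepsin family of aspartic proteases, and many members carry changes at the catalytic site and are thought not to cleave proteins. PAG1 reaches the blood of the pregnant cow, where assays for PAGs are used to diagnose pregnancy. The cattle genes form a large tandem array, and they are sorted by sequence into an ancient group, expressed across the trophoblast, and a modern group, expressed mainly in its binucleate cells. Similar copies lie next to each other, and neither labels nor headers say how reads matching several copies were assigned, so the assignment of a site to 1 copy is uncertain.

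The sites covered part of the family. The RefSeq gene table used for symbols (assembly ARS-UCD2.0) held 20 numbered PAG genes on chromosome 29, and 8 of them were named by a site: PAG1, PAG3, PAG4, PAG6, PAG14, PAG16, PAG17 and PAG21. All 8 belong to the modern group, which had 15 genes in that table. None of the 5 ancient genes (PAG2, PAG8, PAG10, PAG11 and PAG12) was named by a member site. The rule goes by gene name, and some sites in and beside the array have a closest gene without a functional name. Whether any of those genes is a further PAG copy was not tested, so the family's coverage could be wider than counted here. The ninth gene, named pregnancy-associated glycoprotein 1-like, has no family number. The gene called PAG1 here (ENSBTAG00000054180) carries the RefSeq symbol LOC281964 with PAG1 as a synonym.

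Of the 13 sites, 1 was called, an intronic site of PAG14 with a negative difference. The share called was 7.69% of the members, against a background of 4.48% of the 13502 autosomal sites and 4.77% of the 692 sites of chromosome 29. For negative calls alone the autosomal background was 3.07%. A single call among 13 sites is too few to tell the family from that background. For tiles no count can be read, since no tile named a PAG gene. The autosomal background for tiles was 2.34%.

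The PAG14 site lay at position 38347276 of chromosome 29 (build ARS-UCD1.2, minus strand) and had a difference of -31.3 points (p = 1.89e-05, q = 0.00156) in the authors' deposited table. It fell inside an intron of PAG14 (ENSBTAG00000051614) annotated at positions 38346834 to 38349128, at 442 bp from the intron's edge at the lower coordinate. In the authors' deposited table no other listed site of chromosome 29, called or not, had a lower difference, and its 33 called sites comprised 23 negative and 10 positive ones. Among the 605 called autosomal sites it ranked 32nd from the lowest difference. Sites inside introns were called in 3.45% of 2752 cases on autosomes, and of these 95 calls the PAG14 site was the 5th lowest.

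No second measurement lay close to that site. The opposite strand of the same CpG was not listed, for PAG14 or for any other member. The nearest listed site was 32596 bp away, in PAG16, and the nearest on the other side was 151202 bp away, beside PAG4. The nearest tile was 1520 kb away. Among called autosomal sites, 194 of 605 (32.1%) likewise had no listed site within 30 kb.

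**Figure D1:**
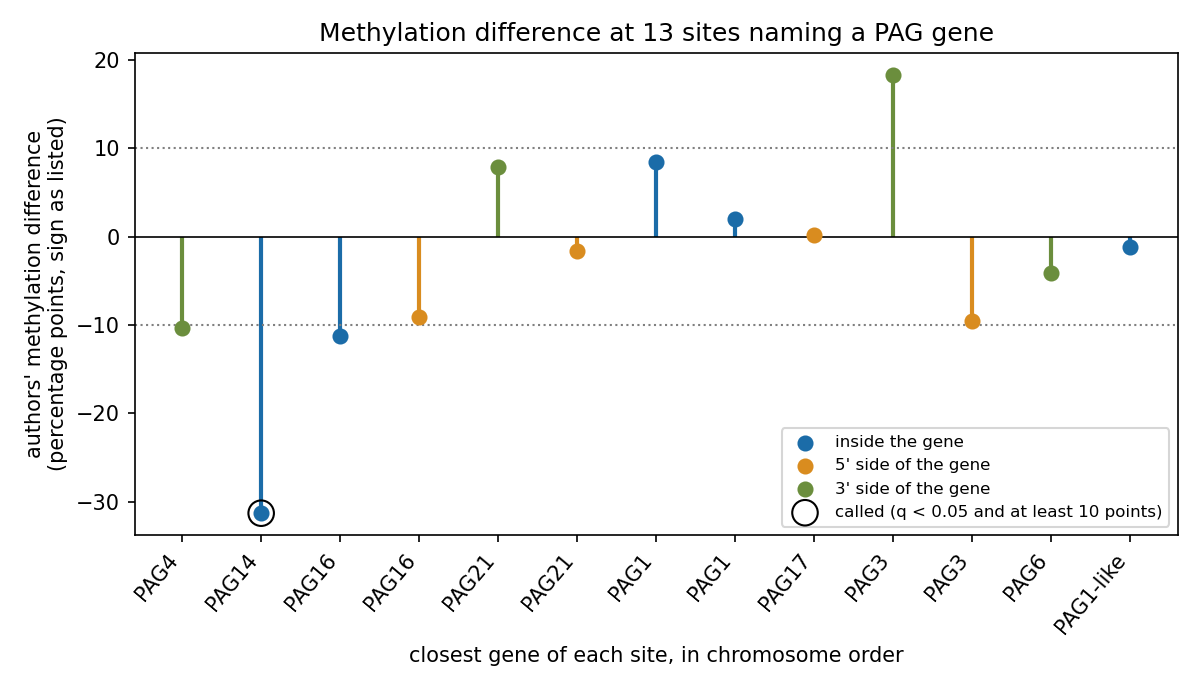
Methylation difference (y axis, percentage points, sign as listed in the authors' deposited table) at each of the 13 sites, ordered along chromosome 29 and labelled with the gene named (x axis). Colour gives the side of the gene, dotted lines mark 10 points, and the ring marks the call at PAG14 at -31.3 points; the other sites lie between -11.3 and 18.3 points.

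The genes on either side of PAG14 had negative differences that did not pass the q threshold. PAG16 (ENSBTAG00000039970) had an intronic site at position 38379872 with -11.3 points (q = 0.243), 1097 bp from the edge of the intron, in the authors' deposited table. Its other site, at position 38406131, lay 20063 bp from the 5′ untranslated region, on the upstream side, at -9.14 points with q = 0.332, per the authors' deposited table. PAG4 (ENSBTAG00000053183) was named by 1 site at position 38196074, at -10.3 points with q = 0.366, per the authors' deposited table. That site was 21790 bp away on the 3′ side. The feature it was assigned to is listed as an intron, with its start above its end, over 8838 bp. The other introns at member sites were listed at 984 to 2431 bp, so whether this entry is a true intron is uncertain. All 4 sites from PAG4 to PAG16, over 210 kb, were thus negative. That stretch was cut where the sign changes, after the values were seen, so its count is not a result about the region. Over all 13 members 8 were negative, beside 55.5% of autosomal sites. The PAG14 site was the only one of the 4 called. Of the next 8 sites, from PAG21 to PAG6, 3 were negative.

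PAG1, a secreted protein of the binucleate cells, was the only gene with sites close together. Its intronic site at position 38612775 was at 8.46 points (q = 0.362), 118 bp from the intron's edge, in the authors' deposited table. A site in the adjoining coding sequence (positions 38612894 to 38613044), 233 bp along at position 38613008, was at 2.03 points with q = 0.756, per the authors' deposited table. Both PAG1 sites were positive and neither was called. The PAG1 coding site was the only one of the 13 inside an exon.

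PAG3 (ENSBTAG00000022348) was flanked by sites of opposite sign. On its 3′ side, 22855 bp from exon 9, the site at position 39284719 had the highest difference of the family, 18.3 points (p = 0.0104, q = 0.0949), in the authors' deposited table. On its upstream side, 19994 bp from the 5′ untranslated region, the site at position 39336592 was at -9.59 points with q = 0.346, per the authors' deposited table. These sites were 51873 bp apart, and neither was called. At q below 0.1 with the same 10 points the site on the 3′ side would join PAG14, making 2 of 13, against an autosomal background of 6.43% under that rule.

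PAG21 (ENSBTAG00000040340) also had a site on each side with opposite signs. The site at position 38460331, 14223 bp from exon 9 on the 3′ side, was at 7.83 points with q = 0.333, per the authors' deposited table. The site at position 38543336, 59706 bp upstream of the 5′ untranslated region and the farthest of the 13 from its gene, was at -1.65 points with q = 0.756, per the authors' deposited table. In both PAG3 and PAG21 the positive value was thus the one on the 3′ side, and neither was called. The sites on the 3′ side of PAG4 and PAG6 were negative, at -10.3 and -4.11 points.

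The remaining 3 genes had 1 site each with small differences. PAG6 (ENSBTAG00000006304) was named by a site at position 39356979, 20401 bp from exon 9 on the 3′ side, at -4.11 points with q = 0.459, per the authors' deposited table. PAG17 (ENSBTAG00000026016) was named by a site at position 39061770, 34752 bp upstream of its 5′ untranslated region, at 0.13 points with q = 0.834, per the authors' deposited table. The pregnancy-associated glycoprotein 1-like gene (ENSBTAG00000037645) had an intronic site at position 41831791, 836 bp from the intron's edge, at -1.13 points with q = 0.737, per the authors' deposited table. This gene lay apart, 2475 kb beyond the last of the other 12 sites.

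By position, 5 of the 13 sites lay inside a gene (PAG14, PAG16, PAG1 with both its sites, and the 1-like gene), 4 on the upstream side and 4 on the 3′ side. All 9 genes are annotated on the minus strand, so the upstream side has the higher coordinates. Differences inside genes ran from -31.3 to 8.46 points with 3 of 5 negative, upstream from -9.59 to 0.13 with 3 of 4 negative, and on the 3′ side from -10.3 to 18.3 with 2 of 4 negative, all from the authors' deposited table. The ranges overlapped. Each of the 8 sites outside a gene was more than 10 kb from the gene it names, and no site was annotated to a promoter. Statements on these 8 sites are therefore about the intergenic parts of the array.

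**Figure D2:**
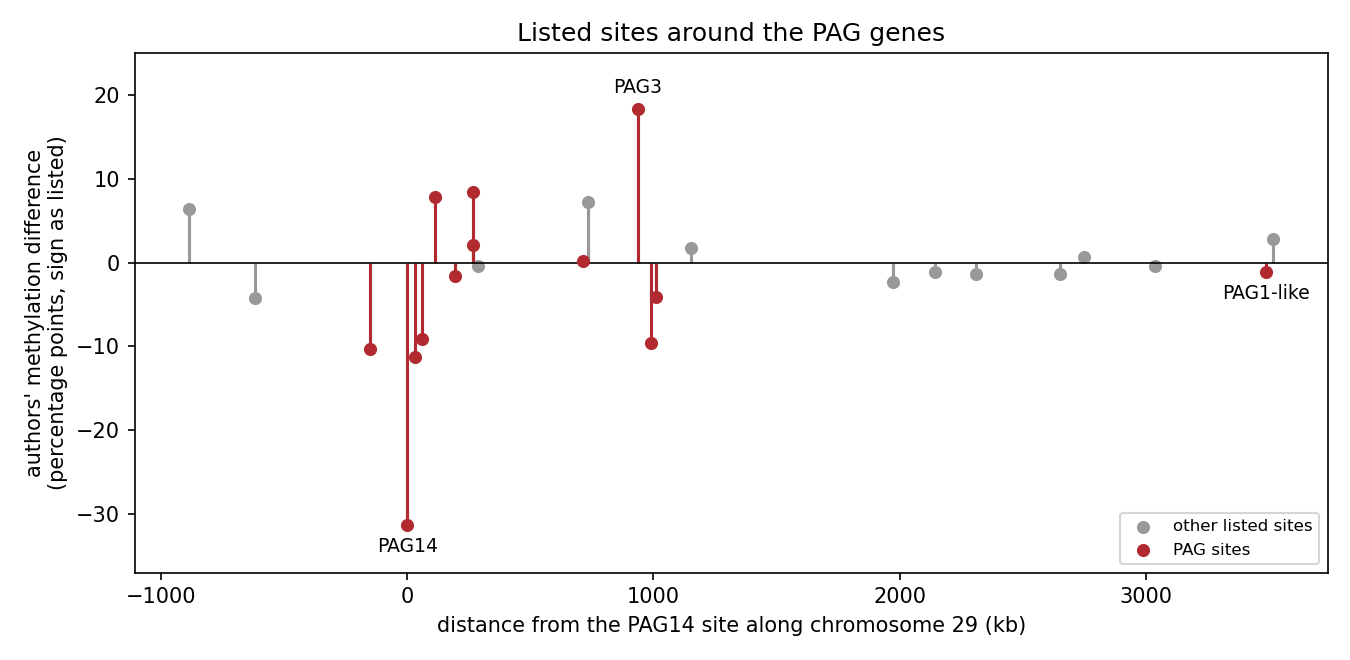
Methylation difference (y axis, percentage points, sign as listed) of every listed site around the array, against its distance from the PAG14 site along chromosome 29 (x axis, kb). Red marks the 13 PAG sites and grey the other listed sites; PAG14 at -31.3 points and PAG3 at 18.3 points stand out, and grey sites between the array and the 1-like gene lie near 0.

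Sites in the array were widely spaced. Its 12 sites from PAG4 to PAG6 spread over 1161 kb, which held 14 listed sites in all (12.1 per Mb, against 13.6 per Mb over chromosome 29) and no tile. Over the autosomes and chromosome 29 as a whole, sites came in tighter groups. The median distance to the nearest listed site was 26259 bp for members, 1540 bp for autosomal sites and 94 bp for chromosome 29. In total 11 of the 13 members, but 44.9% of autosomal sites, had their nearest listed neighbour more than 10 kb away. Wide spacing was not particular to the array. Before its first site, at position 38196074, the nearest listed sites lay at 37728071 and 37461700. After its last site, at position 39356979, the next ones lay at 39501312 and 40319579. The 2 other sites within the array named genes without a functional name. One of them, at position 39081497 and 16530 bp from ENSBTAG00000046686, was at 7.19 points with q = 0.0313, per the authors' deposited table, below the 10 points needed for a call. The other was at -0.44 points (q = 0.834), 13709 bp from ENSBTAG00000048202, in the authors' deposited table.

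The median difference at PAG sites was larger in size than that of autosomal sites, with no larger share of low p-values. The median absolute difference was 8.46 points for the 13 members and 2.77 points for autosomal sites, from the authors' deposited table. The autosomal median exceeded 4 of the 13 members (PAG17, the 1-like gene, the upstream site of PAG21 and the coding site of PAG1). A difference of at least 10 points in either direction was found at 4 members (PAG14, PAG3, PAG16 and PAG4), which is 30.8%, against a background of 11.2% of autosomal sites. An unadjusted p below 0.05 was listed for 2 members (15.4%) and for 20.5% of autosomal sites in the authors' deposited table. Of the 1511 autosomal sites with at least 10 points of difference 605 were called, and of the 4 members 1 was. The 6061 autosomal sites that also lay more than 10 kb from their nearest listed site had a median absolute difference of 2.47 points, and 9.12% of them reached 10 points. By sign, 8 members were negative and 5 positive, with a median of -1.65 points, while 55.5% of autosomal sites were negative, with a median of -0.71 points, in the authors' deposited table. These values describe the list and are not a test of it.

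At the 8 members with a difference of at least 7 points, a bound chosen after the values were seen, the p-value was high for that size of difference. Each was set beside the other autosomal sites whose absolute difference was within 1 point of its own. At PAG14 all 13 such sites had a lower p, with a median of 1.57e-07 in the authors' deposited table. For the 3′ site of PAG3 this was so for 98 of 116 sites (84.5%), for PAG4 for 477 of 520 (91.7%) and for the intronic site of PAG16 for 309 of 425 (72.7%). Over the 8 members the share ran from 61.5% to 100%. With the members nearer to 0 included, the share ran from 60.9% to 100% over all 13, and it was above 50% at each. For PAG17, at 0.13 points, the window of 1 point was cut off at 0. Read depth enters a p-value. Whether the spread between bulls enters these p-values is not known, since the settings of the authors' test are not given. Neither was analysed here, so their part in this was not tested.

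**Figure D3:**
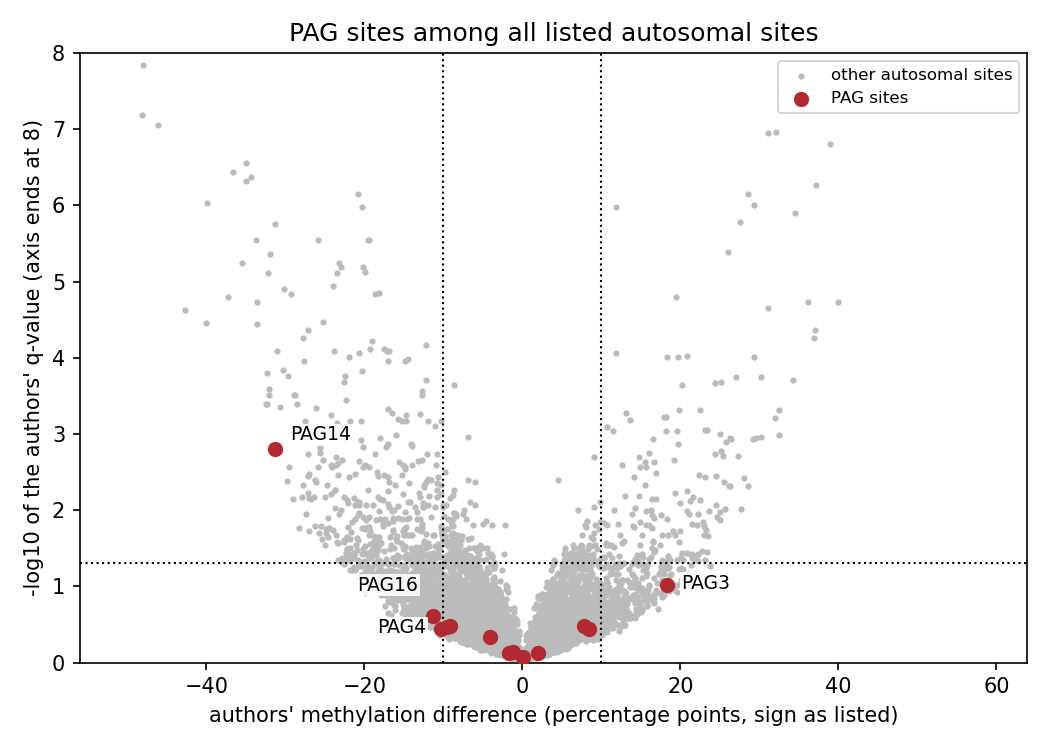
Difference (x axis, percentage points, sign as listed) against the -log10 of the q-value (y axis) for the 13 PAG sites (red) and the other autosomal sites (grey), both from the authors' deposited table; dotted lines mark q of 0.05 and 10 points, and the axis ends at 8, leaving out 16 grey sites. PAG14 is the only red point past both thresholds, and PAG3, PAG4 and PAG16 lie low among grey points of the same difference. Grey points pool chromosomes whose q-values were not all on the same scale.

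Of genes related to PAGs by family or by tissue, 1 in each list was named by a listed site. Of the pepsin-family aspartic proteases (pepsins, chymosin, gastricsin, cathepsins D and E, renin, napsin and beta-secretases), 1 autosomal site was listed and not called. It lay in an intron of beta-secretase 2, a membrane-bound protease, at 3.27 points with q = 0.366, per the authors' deposited table. Of other ruminant trophoblast products (placental lactogen, prolactin-related proteins, interferon tau, trophoblast Kunitz domain proteins and retroviral envelope genes), only trophoblast Kunitz domain protein 1 (ENSBTAG00000018122, chromosome 13), a secreted protein with a protease-inhibitor fold, was named. Its 3 sites were all negative, from -13.7 to -1.003 points, and none was called in the authors' deposited table, where 55.5% of autosomal sites were negative and 4.48% were called. Its 7 tiles, which overlap each other within 1 intron (positions 74025401 to 74026500), were also all negative. They ran from -5.94 to -4.21 points with q down to 3.1e-31 in the authors' deposited table, short of the 10 points needed for a call. Both traits were common among tiles: 70.3% of the 6580 autosomal tiles were negative and 4674 had q below 0.05 in the authors' deposited table. The 7 tiles share CpG sites and count as 1 region.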

How the data were processed

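EM-seq data of 12 bull sperm samples (6 low, 6 high daughter fertility) were used as 2 tables of the authors' comparison. Trimmomatic, Bismark, methylKit and build ARS-UCD1.2 are named per the submitters' processing notes, without versions, roles or settings. The p-values and q-values were deposited by the authors, and the adjustment method is not given in the sources used here. The q-values of sites were used as listed, although their scale differed between chromosomes. The methylation difference, in percentage points, was deposited by the authors under methylKit's column name. Counts per sample and coverage were not analysed here, so no new test was run, depth is unknown and precision cannot be given.

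Annotation text was URL-decoded and searched for the gene name with Python 3.11.15 and pandas 2.3.3. The listed distance equalled the distance to the feature's nearer edge at all 13 sites. Side was taken from the feature's strand. All 9 genes matched the RefSeq table by NCBI number; that table was used for symbols and family membership only. The ancient and modern groups are background knowledge. The counting code was tested on simulated data. Every PAG gene with a site is named, and every site is described. Members, lists and thresholds were chosen with earlier results of these data known. Alternatives varied the q-value and difference thresholds, the distance limit and the membership rule.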

Additional observations from a re-analysis of the deposited data

How the results depend on the processing

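The count of 1 called PAG site was the same at q below 0.01, and at 5 and at 20 points of difference. It was also the same with the gene within 10 kb (5 sites) and with the strands of a CpG counted once. With all 15 sites inside the array and at the 1-like gene it was again 1. Counting strands once could not change it, since no member had a listed partner on the other strand. Nor could 5 or 20 points, since only 1 member had q below 0.05, at -31.3 points. At q below 0.1 the count was 2, the added site being that on the 3′ side of PAG3. The median difference was -1.65 points over the 13 sites and -1.13 points within 10 kb, with 1 value per gene (9 genes) and over the 15 sites. The tile count was 0 under every alternative run, because no tile was there to count; a median over tiles was not run for the same reason. Leaving out each sample and changing the coverage minimum were not run, since the tables hold no values per sample. No paired analysis was possible because the labels share no replicate numbers between groups and the tables hold 1 comparison. The call rests on 1 cytosine of unknown depth.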
